A study of Arabidopsis thaliana with 12 samples.

Results

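The 10 Arabidopsis genes described here encode enzymes that make and break down proline and that use arginine and ornithine. They were taken by locus identifier from an RNA-seq table of 33323 genes, and all 10 were found there and passed the filter on low values, as did 19660 genes in all. Of these enzymes, 3 make proline (P5CS1, P5CS2 and P5CR), 3 break it down (ProDH1, which is also named ERD5, ProDH2 and ALDH12A1) and 4 use arginine or ornithine (ARGAH1, ARGAH2, DELTA-OAT and NATA1).

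The study asked how the level of KLU, a cytochrome P450 gene known for its effect on organ growth and leaf production, alters the leaf transcriptome. RNA came from whole rosettes of single soil-grown plants at 35 days, labelled as leaf tissue and grown in a greenhouse with 8 h of light and 16 h of darkness, with 3 plants for each of 4 genotypes. The overexpression lines 35S:KLU1 and 35S:KLU2 carry KLU fused to GFP under the constitutive viral 35S promoter in the Col-0 background, and each is a single transgenic line. The klu mutant carries a T-DNA insertion in KLU, also in Col-0, and WT Col-0 is the reference without transgene or insertion. KLU had 1729 to 2890 FPKM (fragments scaled by transcript length and by the mapped fragments of the library) in the 6 35S:KLU libraries, 0.13 to 0.22 FPKM in klu plants and 5.42 to 6.26 FPKM in Col-0. Every library thus matched its label as overexpressor, mutant or WT. KLU levels overlapped between 35S:KLU1 and 35S:KLU2, so they do not check which line a library came from.

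The FPKM of a library summed to 1110149 to 1194277, and 18684 to 19230 genes reached 0.5 FPKM. The value of a single fragment, which shows depth only in relative terms, ranged from 0.885 to 1.476 times that of Col-0 replicate 1, and the largest value, that of the shallowest library, belonged to 35S:KLU2 replicate 2. The library of klu replicate 1 stood apart: it had the fewest genes at 0.5 FPKM, and the meristem gene STM was at 0 there, while both remaining klu plants had 8.21 and 9.28 FPKM and Col-0 plants 6.50 to 7.27 FPKM. All 3 leaf mesophyll markers (RBCS1A, LHCB1.3 and CA1) were high everywhere, and their summed FPKM was 46052 to 51163 in the 35S:KLU lines, 53023 to 63645 in klu and 53337 to 57255 in Col-0. The summed level of 3 meristem markers was 5.68 to 8.62 FPKM in the 35S:KLU lines, 0.06 to 14.4 FPKM in klu plants and 9.81 to 10.4 FPKM in Col-0, and that of 3 root markers 16.8 to 25.9 FPKM in the 35S:KLU lines, 17.2 to 65.8 FPKM in klu plants and 28.5 to 31.9 FPKM in Col-0. That of 3 flower markers was at most 0.81 FPKM in any library. The mesophyll, meristem and root sums were lower in the 35S:KLU lines than in Col-0. In klu the meristem and root sums spanned those of Col-0. Single markers did not all follow, and RBCS1A overlapped across genotypes. The root sum followed PYK10 (means 9.75 FPKM in the 35S:KLU lines and 19.9 FPKM in Col-0), not SCR (10.4 and 9.97 FPKM). COBL9 was near the floor (0.04 and 0.087 FPKM), CLV3 was 0 in every library and no flower marker passed the filter. The part of the markers in the results below was not tested. In whole rosettes, fewer cells of a type and less RNA per cell cannot be told apart.

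Proline accumulates in many plants under drought, salt and cold, where it acts as a compatible solute. In Arabidopsis it is made mainly from glutamate: P5CS converts glutamate to an intermediate that yields pyrroline carboxylate (P5C), and P5CR reduces P5C to proline. In mitochondria, proline dehydrogenase oxidises proline back to P5C, and ALDH12A1 oxidises P5C to glutamate. Arginase splits arginine into ornithine and urea. Ornithine can then enter the same pool of P5C through ornithine aminotransferase, or it can be acetylated by NATA1.

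In the 35S:KLU lines, NATA1 and the arginase gene ARGAH2 rose (ratios 6.48 and 2.31 against Col-0). ProDH1 stood at 0.489 of its Col-0 mean in the 35S:KLU lines and at 0.602 of it in klu. The genes of proline synthesis in the 35S:KLU lines stood 1.192 to 1.281 times as high as in Col-0 and 1.305 to 1.573 times as high as in klu. A gene was called where its adjusted p from limma, adjusted over all 19660 tested genes, was under 0.05. For the mean of both 35S:KLU lines against Col-0, 5 of the 10 genes were called, 4 higher (P5CS2, ALDH12A1, ARGAH2 and NATA1) and 1 lower (ProDH1). Among all tested genes 19.6% were called in this comparison, 11.4% higher and 8.18% lower. Against klu, 7 of the 10 were called, all higher (P5CS1, P5CS2, P5CR, ProDH2, ALDH12A1, ARGAH2 and NATA1), where 26.6% of all tested genes were called, 15.9% higher and 10.7% lower. The share of higher genes among all those called against klu was 59.9%, and 49.8% with upper-quartile scaling of the libraries. The median log2 fold change of the 10 genes was 0.25 against Col-0 and 0.50 against klu, beside 0.03 and 0.04 over all tested genes. The 35S:KLU libraries did not overlap those of Col-0 for 6 of the 10 genes, nor those of klu for 6 of them, and over all tested genes these shares were 27.4% and 24.3%.

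The first count depended on single libraries. Against Col-0 it was 3 when Col-0 replicate 1, Col-0 replicate 2 or 35S:KLU2 replicate 3 was left out, since P5CS2 and ALDH12A1 were then no longer called, and 6 without klu replicate 1, when P5CR was also called. Against klu it was 6 or 7 whichever library was left out. NATA1, ARGAH2 and ProDH1 kept their calls against Col-0 in all 20 alternative settings, and NATA1, ARGAH2, P5CS2, ProDH2 and ALDH12A1 kept theirs against klu.

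**Figure D1:**
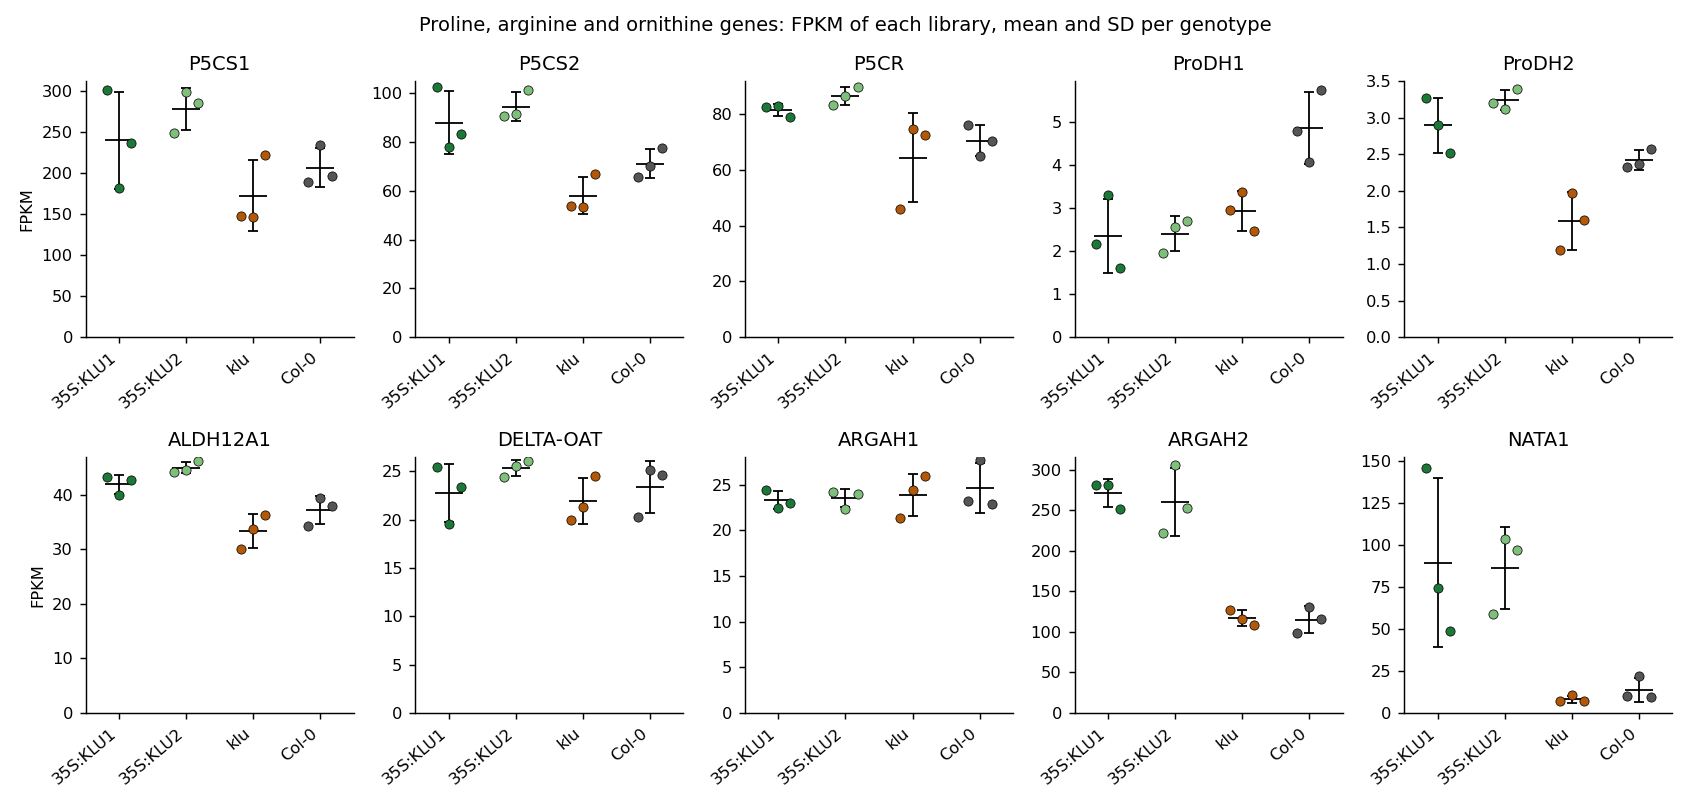
FPKM of the 10 genes in each of the 12 libraries (points, in replicate order) with the mean and SD of 3 plants per genotype (horizontal line and bars); every vertical axis starts at 0. All 6 35S:KLU plants lie above all klu and Col-0 plants for ARGAH2 and NATA1, and below all Col-0 plants for ProDH1.

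P5CS1 (AT2G39800, chr2:16598072-16603319, minus strand, coordinates here and below in TAIR10.1) encodes the synthetase isoform that responds to osmotic stress and abscisic acid. Its mean over the 12 libraries, 224 FPKM, was the highest of the 10 genes and lay at the 96.1 percentile of tested genes, but in the 35S:KLU plants ARGAH2 had a mean of 266 FPKM, against 259 FPKM for P5CS1. P5CS1 had 301, 182 and 236 FPKM in 35S:KLU1, 249, 298 and 286 FPKM in 35S:KLU2, 148, 147 and 222 FPKM in klu and 189, 234 and 196 FPKM in Col-0. One 35S:KLU1 plant lay below all Col-0 plants and klu replicate 3 lay above 2 of the Col-0 plants, so the ranges overlapped in both comparisons. Its log2 fold change for the mean of both lines was 0.31 ± 0.16 (SE) against Col-0 (adjusted p = 0.203, 95% interval −0.04 to 0.66) and 0.59 ± 0.16 against klu (adjusted p = 0.0181, limma). The call against klu was lost without klu replicate 1 (0.50, adjusted p = 0.0716) or klu replicate 2 (0.49, adjusted p = 0.0768).

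P5CS2 (AT3G55610, chr3:20624020-20629295, minus strand) encodes the isoform known for housekeeping and for dividing tissue. It had 102, 77.9 and 83.3 FPKM in 35S:KLU1, 90.5, 91.4 and 101 FPKM in 35S:KLU2, 53.8, 53.3 and 66.8 FPKM in klu and 65.6, 70.1 and 77.7 FPKM in Col-0. The lowest 35S:KLU plant was thus only just above the highest Col-0 plant (77.86 and 77.70 FPKM), whereas it was well above all klu plants. The log2 fold change was 0.35 ± 0.10 against Col-0 (adjusted p = 0.0285) and 0.65 ± 0.10 against klu (adjusted p = 7.60e-04). The call against Col-0 was lost without Col-0 replicate 1 (0.29, adjusted p = 0.127), Col-0 replicate 2 (0.34, adjusted p = 0.0924) or 35S:KLU2 replicate 3 (0.32, adjusted p = 0.0626). Fragments that fit both P5CS genes may have been shared between them by the estimation of levels, so their separate values carry that uncertainty, as do those of ARGAH1 with ARGAH2 and NATA1 with its neighbour NATA2.

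P5CR (AT5G14800, chr5:4785960-4787996, minus strand), the last enzyme of the route, varied little within the 35S:KLU lines. It had 82.7, 82.9 and 79.0 FPKM in 35S:KLU1, 83.3, 86.5 and 89.7 FPKM in 35S:KLU2, 46.0, 74.8 and 72.4 FPKM in klu and 76.1, 65.1 and 70.3 FPKM in Col-0. All 6 35S:KLU plants were above all plants of klu and of Col-0, and klu replicate 1 was far below the other klu plants. Against Col-0 its log2 fold change was 0.25 ± 0.12 (adjusted p = 0.181), and without klu replicate 1 the same difference gave an adjusted p of 0.00541. Against klu it was 0.41 ± 0.12 (adjusted p = 0.0299), but 0.19 without klu replicate 1 (adjusted p = 0.0467). The call against klu was lost without 35S:KLU1 replicate 1 (adjusted p = 0.0553), 35S:KLU1 replicate 2 (adjusted p = 0.0534) or 35S:KLU2 replicate 3 (adjusted p = 0.0595).

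The 2 genes for proline dehydrogenase were the lowest of the 10, with means of 3.14 FPKM for ProDH1 and 2.53 FPKM for ProDH2, at the 19.0 and 16.3 percentiles of tested genes. Against Col-0 their estimates in the 35S:KLU lines had opposite signs, and their promoters are shown for that reason, with that of ALDH12A1. The 250 bases before each gene start were read from the RefSeq TAIR10.1 genome, 5′ to 3′ on the strand of the gene, with capitals for the motif ACTCAT or its reverse complement. ACTCAT is known in Arabidopsis as an element of proline-responsive promoters that bZIP factors of group S1 can bind.
ProDH1 promoter, chr3:12451557-12451806, minus strand: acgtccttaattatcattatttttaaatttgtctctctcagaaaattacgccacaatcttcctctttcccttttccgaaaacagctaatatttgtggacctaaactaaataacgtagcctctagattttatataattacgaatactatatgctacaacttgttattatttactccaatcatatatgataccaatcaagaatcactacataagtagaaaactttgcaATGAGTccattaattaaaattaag
ProDH2 promoter, chr5:15500876-15501125, plus strand: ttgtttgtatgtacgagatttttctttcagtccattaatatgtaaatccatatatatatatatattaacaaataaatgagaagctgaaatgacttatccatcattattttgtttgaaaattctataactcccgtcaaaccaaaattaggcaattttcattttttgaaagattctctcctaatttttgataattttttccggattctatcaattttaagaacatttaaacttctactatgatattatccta
ALDH12A1 promoter, chr5:25103313-25103562, minus strand: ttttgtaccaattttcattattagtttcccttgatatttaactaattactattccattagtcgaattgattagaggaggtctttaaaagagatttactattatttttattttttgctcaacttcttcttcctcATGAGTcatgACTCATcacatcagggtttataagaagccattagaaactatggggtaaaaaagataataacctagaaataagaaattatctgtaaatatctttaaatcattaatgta
ACTCAT was present once before ProDH1, with its first base at position −24 from the gene start, and at 2 positions before ALDH12A1 (−117 and −107). It was not found in this window of ProDH2 or of the other 7 genes, and 12.3% of the same windows of 27443 nuclear protein-coding genes held it on either strand. A match is a description of the letters and does not show that a factor binds there.

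ProDH1 (AT3G30775, chr3:12448636-12451556, minus strand) encodes the mitochondrial enzyme that is repressed by dehydration and induced by proline. It had 2.16, 3.30 and 1.62 FPKM in 35S:KLU1, 1.95, 2.56 and 2.71 FPKM in 35S:KLU2, 2.96, 3.38 and 2.46 FPKM in klu and 4.79, 4.07 and 5.75 FPKM in Col-0. Every 35S:KLU plant and every klu plant was below every Col-0 plant, and the 35S:KLU and klu plants overlapped. The log2 fold change against Col-0 was −0.80 ± 0.16 (adjusted p = 0.00466), and against klu it was −0.23 ± 0.16 (adjusted p = 0.315, 95% interval −0.57 to 0.11). In klu against Col-0 it was −0.57 ± 0.18, with an unadjusted p of 0.00817 and an adjusted p of 0.627. The added 1 FPKM makes fold changes of genes as low as this smaller than the ratio of their FPKM.

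ProDH2 (AT5G38710, chr5:15501126-15504269, plus strand) encodes the second mitochondrial proline dehydrogenase. It had 3.27, 2.90 and 2.51 FPKM in 35S:KLU1, 3.20, 3.12 and 3.39 FPKM in 35S:KLU2, 1.19, 1.97 and 1.60 FPKM in klu and 2.33, 2.36 and 2.57 FPKM in Col-0. Only the lowest 35S:KLU plant reached into the Col-0 range, all klu plants lay below both other groups, and klu replicate 1 was the lowest of them. Its log2 fold change was 0.66 ± 0.11 against klu (adjusted p = 0.00117) and 0.25 ± 0.11 against Col-0 (adjusted p = 0.135, 95% interval 0.01 to 0.48).

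Within a library the ratio of ProDH2 to ProDH1 was 0.879 to 1.64 in the 6 35S:KLU plants, 0.402 to 0.650 in klu and 0.447 to 0.580 in Col-0. ProDH2 was thus the higher of the pair in 5 of 6 35S:KLU plants and in none of the 6 klu and Col-0 plants. The log2 ratio differed by 1.39 from Col-0 and by 1.299 from klu (exact permutation test over libraries, two-sided, n = 6 and 3, p = 0.0238 for each, the smallest that this design allows, and adjusted p = 0.0346 over 16 such tests of 8 ratios). These tests pooled the plants of both 35S:KLU lines without regard to line, so n = 6 counts plants and not independent lines. ProDH1 alone already separated the 35S:KLU libraries from those of Col-0, and ProDH2 alone from those of klu. The tests of this ratio therefore add no support beyond the limma calls of those genes. The sum of the pair was 4.13 to 6.2 FPKM in the 35S:KLU lines, 4.06 to 5.35 FPKM in klu plants and 6.43 to 8.32 FPKM in Col-0, so it was below Col-0 in all 9 other plants, and ProDH1 supplied 37.9 to 53.2% of it in the 35S:KLU lines, 60.6 to 71.3% in klu and 63.3 to 69.1% in Col-0.

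ALDH12A1 (AT5G62530, chr5:25099003-25103312, minus strand), whose enzyme completes proline breakdown and also clears P5C made from ornithine, changed by a small and even step. It had 43.2, 39.9 and 42.6 FPKM in 35S:KLU1, 44.2, 44.5 and 46.2 FPKM in 35S:KLU2, 30.1, 33.8 and 36.2 FPKM in klu and 34.3, 39.3 and 37.9 FPKM in Col-0. All 35S:KLU plants were above all others, the lowest of them by a margin over Col-0 of less than 1 FPKM. Against klu the log2 fold change was 0.37 ± 0.07 (adjusted p = 0.00202). Against Col-0 it was 0.22 ± 0.07 (adjusted p = 0.0398), and this call was lost when Col-0 replicate 1, 2 or 3 (adjusted p = 0.185, 0.0576 and 0.0828), 35S:KLU1 replicate 1 or 3 (0.0793 and 0.0769) or any 35S:KLU2 replicate (0.063, 0.0603 and 0.0808) was left out. Of the genes of proline breakdown, ProDH1 and ALDH12A1 therefore differed from Col-0 in opposite directions. The ratio of ALDH12A1 to ProDH1 was 12.1 to 26.3 in the 35S:KLU lines, 9.99 to 14.7 in klu and 6.59 to 9.66 in Col-0. Its exact permutation test gave an adjusted p of 0.0346 against Col-0 and 0.0544 against klu. For the ratio of P5CS1 to ProDH1 that test gave an adjusted p of 0.0544 against Col-0 and against klu. ALDH12A1 alone and ProDH1 alone already separated the 35S:KLU plants from Col-0. The test of the ratio of ALDH12A1 to ProDH1 against Col-0 therefore adds no support beyond their limma calls.

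**Figure D2:**
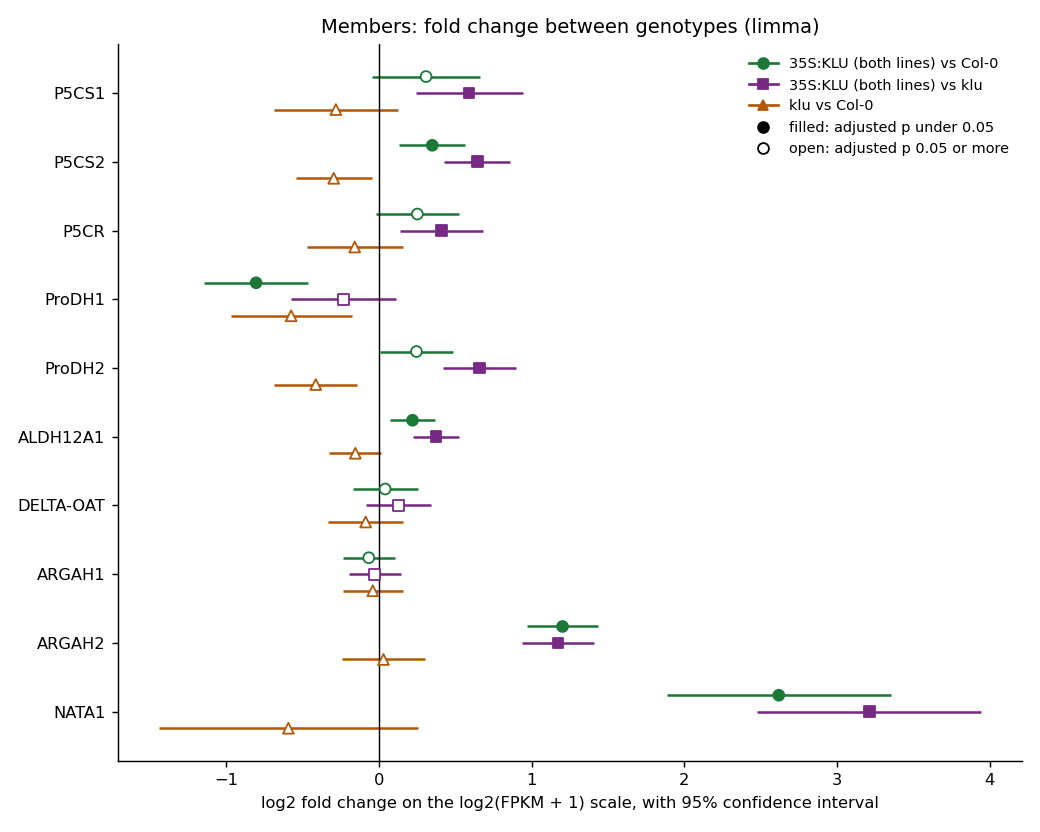
Log2 fold change of each of the 10 genes on the log2(FPKM + 1) scale for the mean of both 35S:KLU lines against Col-0 and against klu, and for klu against Col-0 (points), with 95% confidence intervals (lines) from limma; filled points have an adjusted p under 0.05. In the 35S:KLU comparisons NATA1 and ARGAH2 lie farthest to the right, ProDH1 is the only gene called lower against Col-0, and no point of klu against Col-0 is filled.

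The pair of arginase genes split sharply. ARGAH2 was, with NATA1, the gene that moved most, and ARGAH1, close by on the same chromosome, did not differ beyond its spread. The windows before ARGAH2 and NATA1, the 2 genes with the largest changes, are shown with capitals for ACGTG or its reverse complement, the core of elements that respond to abscisic acid and of the G box, and that of ARGAH1 is shown beside them.
ARGAH2 promoter, chr4:5648869-5649118, minus strand: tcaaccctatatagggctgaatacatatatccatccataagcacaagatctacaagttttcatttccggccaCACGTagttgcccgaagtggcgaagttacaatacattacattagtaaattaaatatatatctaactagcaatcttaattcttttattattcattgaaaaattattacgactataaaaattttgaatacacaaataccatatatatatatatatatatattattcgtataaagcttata
ARGAH1 promoter, chr4:5703061-5703310, plus strand: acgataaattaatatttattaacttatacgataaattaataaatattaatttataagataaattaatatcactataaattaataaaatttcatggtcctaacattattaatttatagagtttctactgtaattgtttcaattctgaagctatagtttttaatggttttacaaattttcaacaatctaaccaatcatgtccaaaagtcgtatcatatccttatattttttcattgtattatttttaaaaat
NATA1 promoter, chr2:16297860-16298109, plus strand: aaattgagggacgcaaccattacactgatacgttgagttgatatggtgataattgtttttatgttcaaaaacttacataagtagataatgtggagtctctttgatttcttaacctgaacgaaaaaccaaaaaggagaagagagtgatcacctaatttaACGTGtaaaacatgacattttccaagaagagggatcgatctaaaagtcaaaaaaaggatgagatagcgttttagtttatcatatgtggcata
ACGTG began at position −178 of ARGAH2 and at −92 of NATA1, and it was found in neither strand of the window of ARGAH1. Among the other members only P5CR held it (−51), and over all nuclear protein-coding genes 22.9% of windows did.

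ARGAH2 (AT4G08870, chr4:5646395-5648868, minus strand) encodes the mitochondrial arginase known for induction by jasmonate. It had 282, 281 and 252 FPKM in 35S:KLU1, 222, 306 and 252 FPKM in 35S:KLU2, 127, 115 and 108 FPKM in klu and 98.1, 131 and 116 FPKM in Col-0. The lowest 35S:KLU plant was far above the highest plant of the other genotypes. The log2 fold change was 1.2 ± 0.11 against Col-0 (adjusted p = 8.37e-05) and 1.17 ± 0.11 against klu (adjusted p = 3.78e-05). Its 95% interval was 0.97 to 1.44 against Col-0.

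ARGAH1 (AT4G08900, chr4:5703311-5705439, plus strand), the other mitochondrial arginase, had 24.4, 22.5 and 23.0 FPKM in 35S:KLU1, 24.2, 22.4 and 23.95 FPKM in 35S:KLU2, 21.4, 24.4 and 25.9 FPKM in klu and 23.2, 27.7 and 22.9 FPKM in Col-0. The genotypes overlapped throughout. The log2 fold change was −0.07 ± 0.08 against Col-0, with a 95% interval of −0.24 to 0.11 that leaves out a change of the size seen for ARGAH2, and −0.03 ± 0.08 against klu (interval −0.20 to 0.15). ARGAH2 stood at 9.20 to 13.7 times the level of ARGAH1 in the 35S:KLU plants, 4.18 to 5.96 times in klu and 4.23 to 5.08 times in Col-0 (exact permutation test as above, p = 0.0238 against each, adjusted p = 0.0346). Since ARGAH2 alone already separated the libraries, this test adds no support beyond its limma calls. ARGAH2 supplied 90.2 to 93.2% of the summed arginase FPKM in the 35S:KLU lines, 80.7 to 85.6% in klu and 80.9 to 83.6% in Col-0.

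DELTA-OAT (AT5G46180, chr5:18718417-18721744, minus strand), the ornithine aminotransferase that passes ornithine to P5C, had 25.5, 19.5 and 23.4 FPKM in 35S:KLU1, 24.4, 25.6 and 26.1 FPKM in 35S:KLU2, 19.9, 21.3 and 24.5 FPKM in klu and 20.3, 25.2 and 24.6 FPKM in Col-0. The 4 genotypes overlapped. Its log2 fold change was 0.04 ± 0.10 against Col-0 (95% interval −0.17 to 0.25) and 0.13 ± 0.10 against klu (interval −0.08 to 0.34), so neither direction was resolved.

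NATA1 (AT2G39030, chr2:16298110-16299205, plus strand, annotated with 1 exon) encodes the acetyltransferase that turns ornithine into N-delta-acetylornithine, a compound known for defence. It showed the largest change of the 10 genes. It had 146, 74.4 and 48.7 FPKM in 35S:KLU1, 58.7, 103 and 97.0 FPKM in 35S:KLU2, 6.86, 10.7 and 6.98 FPKM in klu and 9.81, 21.7 and 9.21 FPKM in Col-0. The 35S:KLU plants differed among themselves more than for any other member (coefficient of variation 40.1%), yet the lowest of them was still above the highest Col-0 plant, replicate 2, which itself stood well above the other Col-0 plants. The mean was 88.0 FPKM in the 35S:KLU lines, against 8.16 FPKM in klu and 13.6 FPKM in Col-0, 10.8 times the klu mean and 6.48 times the Col-0 mean. The log2 fold change was 2.62 ± 0.34 against Col-0 (adjusted p = 5.75e-04) and 3.21 ± 0.34 against klu (adjusted p = 8.77e-05, 95% interval 2.48 to 3.94).

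The neighbouring gene NATA2, a close relative of NATA1, had 64.5 to 79.4 FPKM in the 35S:KLU lines, 57.9 to 66.6 FPKM in klu plants and 54.8 to 66.2 FPKM in Col-0, and its log2 fold change against Col-0 was 0.17 ± 0.08 (adjusted p = 0.15). The ratio of NATA1 to NATA2 was 0.755 to 2.17 in the 35S:KLU lines, 0.112 to 0.160 in klu and 0.139 to 0.334 in Col-0. Between the genes whose enzymes use ornithine, the ratio of NATA1 to DELTA-OAT was 2.08 to 5.72 in the 35S:KLU lines, 0.285 to 0.4995 in klu and 0.374 to 0.861 in Col-0. For both ratios the permutation test gave the smallest p possible, 0.0238 against klu and against Col-0. NATA1 alone already separated the libraries, so these tests add no support beyond its limma calls. In the 35S:KLU rosettes NATA1 was higher than DELTA-OAT by FPKM in every plant, and in klu and Col-0 DELTA-OAT was the higher.

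**Figure D3:**
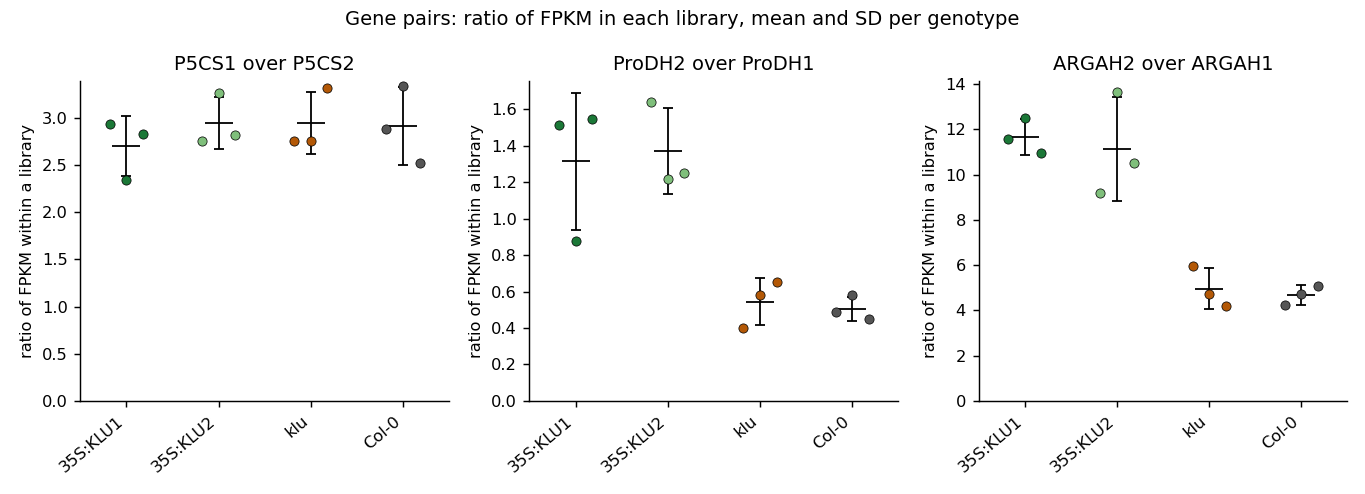
Ratio of FPKM of 2 related genes within each library (points) with the mean and SD of 3 plants per genotype; each vertical axis starts at 0. P5CS1 over P5CS2 overlaps across genotypes, whereas ProDH2 over ProDH1 and ARGAH2 over ARGAH1 are higher in all 6 35S:KLU plants than in any klu or Col-0 plant.

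For the synthetase pair the ratio overlapped across genotypes. P5CS1 stood at 2.34 to 3.27 times P5CS2 in the 35S:KLU lines, 2.75 to 3.32 times in klu and 2.52 to 3.34 times in Col-0 (log2 difference −0.04 against Col-0 and −0.06 against klu, exact permutation test, p = 0.690 and 0.786, n = 6 and 3). The sum of P5CS1, P5CS2 and P5CR was 343 to 486 FPKM in the 35S:KLU lines, 248 to 361 FPKM in klu plants and 331 to 369 FPKM in Col-0.

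Plants of 1 genotype also differed in ways that several members shared. In 35S:KLU1, replicate 1 was highest and replicate 2 lowest for P5CS1, P5CS2, ALDH12A1, DELTA-OAT and ARGAH1. In klu, replicate 3 was the highest for P5CS1, P5CS2, ALDH12A1, DELTA-OAT and ARGAH1. P5CR, ProDH1, ProDH2, ARGAH2 and NATA1 did not share that order in either genotype. Of these, ProDH1 and P5CR were highest in 35S:KLU1 replicate 2 and in klu replicate 2. In 35S:KLU2 and in Col-0 the genes that shared the order did not all have the same highest replicate. The genes whose log2(FPKM + 1) tracked a member most closely over the 12 libraries, which share genotype and depth, included NATA1 for ARGAH2 (Pearson r = 0.956, behind 2 other genes, and 0.612 within genotypes) and, for ProDH2, AT3G55410, annotated as a component of oxoglutarate dehydrogenase (r = 0.974, and 0.948 within genotypes). For NATA1 the closest was AT3G51450 (r = 0.977, and 0.742 within genotypes), and for ProDH1 the closest, AT3G07190, reached only 0.895 (0.603 within genotypes).

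In the single lines, 3 of the 10 genes were called in 35S:KLU1 against Col-0 (ProDH1, ARGAH2 and NATA1), where 11.7% of all tested genes were called, and 5 in 35S:KLU2 (these and P5CS2 and ALDH12A1), where 16% were. ProDH1 had a log2 fold change of −0.83 ± 0.18 in 35S:KLU1 (adjusted p = 0.0130) and −0.78 ± 0.18 in 35S:KLU2 (adjusted p = 0.0140). Those for ARGAH2 were 1.24 ± 0.12 in 35S:KLU1 and 1.17 ± 0.12 in 35S:KLU2, and those for NATA1 2.59 ± 0.39 in 35S:KLU1 and 2.64 ± 0.39 in 35S:KLU2. Against klu, 5 were called in 35S:KLU1 (P5CS2, ProDH2, ALDH12A1, ARGAH2 and NATA1; 18.7% of all tested genes) and 7 in 35S:KLU2 (these and P5CS1 and P5CR; 22.1% of all tested genes). Both lines were set against the same 3 Col-0 or klu plants, so their values are not independent of each other.

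The calls of a single line rested on few plants. For ProDH1 the call was lost in 35S:KLU1 without Col-0 replicate 3 (adjusted p = 0.0553) or 35S:KLU1 replicate 3 (0.0556), and in 35S:KLU2 without Col-0 replicate 3 (0.0517) or 35S:KLU2 replicate 1 (0.0562). The count of 35S:KLU2 against Col-0 was 3 when any single Col-0 plant or replicate 2 or 3 of 35S:KLU2 was left out, and 2 when its replicate 1 was, but 7 without klu replicate 1, when P5CR and ProDH2 were also called. In 35S:KLU2 against klu, P5CR (adjusted p = 0.0421) was no longer called in 8 of the 12 fits that left out a library (up to 0.124) and 5 other settings (up to 0.138), and P5CS1 was no longer called without klu replicate 1 or 2 or 35S:KLU2 replicate 2 or 3 (0.0561 to 0.0643). ALDH12A1 in 35S:KLU1 against klu lost its call without 35S:KLU1 replicate 1 or 3 (0.0551 and 0.0505) and with only those groups in the fit (0.0674). ARGAH2 and NATA1 stayed called in each line, against Col-0 and against klu, whichever library was left out.

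In 35S:KLU2 against 35S:KLU1 none of the 10 genes was called by limma, none had an unadjusted p under 0.05, and 0.0102% of all tested genes were called. The log2 differences ran from −0.07 (ARGAH2) to 0.24 (P5CS1), and the 95% interval for NATA1, −0.80 to 0.90, was the widest. P5CR and ALDH12A1 were higher in all 3 35S:KLU2 plants than in all 3 35S:KLU1 plants, by 0.08 ± 0.14 and 0.10 ± 0.08, and 16.6% of all tested genes did not overlap between the lines in either direction.

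In klu against Col-0 none of the 10 genes was called by limma, where 12 of all tested genes (0.061%) were. At an unadjusted p under 0.05 there were 3, all lower in klu, where 6.01% of all tested genes passed that mark. They were P5CS2 (−0.30 ± 0.11, adjusted p = 0.757), ProDH1 (−0.57 ± 0.18, adjusted p = 0.627) and ProDH2 (−0.41 ± 0.13, adjusted p = 0.568). For ProDH1 and ProDH2 all 3 klu plants were below all 3 Col-0 plants, a split that 8.12% of tested genes showed in either direction. The estimate was negative for 9 of the 10 genes, with a median of −0.22 beside −0.01 over all tested genes, and the exception was ARGAH2 (0.03 ± 0.12, 95% interval −0.24 to 0.30). Over all 19660 tested genes it was positive for 8996. Without klu replicate 1 the estimate was negative for 8 of the 10 genes, with P5CR at 0.064, ARGAH1 at 0.035 and ARGAH2 at −0.032. The median was then −0.135 beside 0.05 over all tested genes. None of the 10 genes was called in klu against Col-0 whichever library was left out, while the number with an unadjusted p under 0.05 was 2 to 5 and that of all genes called 7 to 27. NATA1 averaged 8.16 ± 2.15 FPKM in klu and 13.6 ± 7.04 FPKM in Col-0 (SD, n = 3 each), a difference within the spread of the Col-0 plants.

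Around the 10 genes, 64 other genes of 6 lists (synthesis of ornithine and arginine, polyamines, glutamate and GABA, transport, urea use, and bZIP factors) were followed, of which 61 passed the filter. For the mean of both 35S:KLU lines 14 of the 61 were called against Col-0, 7 higher and 7 lower, and 26 against klu, 16 higher and 10 lower. These are 23.0% and 42.6% of the 61, beside 19.6% and 26.6% of all tested genes, and their median log2 fold changes were −0.03 and 0.03. Of these calls 7 and 17 held in every alternative setting. None of the 61 was called in klu against Col-0 by limma, and 2 had an unadjusted p under 0.05.

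Of 13 genes that make ornithine and arginine, 1 was called higher against Col-0 and 3 against klu. Among all tested genes 19.6% and 26.6% were called in these comparisons. NAOD releases ornithine from N-alpha-acetylornithine, an isomer of the NATA1 product. It had 65.4 to 72.4 FPKM in the 35S:KLU lines, 40.4 to 53.5 FPKM in klu plants and 44.2 to 53.6 FPKM in Col-0. No 35S:KLU plant overlapped with the others, and its log2 fold change was 0.47 ± 0.09 against Col-0 (adjusted p = 0.00314) and 0.58 ± 0.09 against klu (adjusted p = 6.19e-04). OTC, which carries ornithine on towards arginine, rose against klu (0.27 ± 0.06, adjusted p = 0.00377), and its value against Col-0 was 0.16 ± 0.06 (adjusted p = 0.0562). NAOAT, which makes N-alpha-acetylornithine, was also called against klu (0.16 ± 0.05, adjusted p = 0.03), a call lost in 7 of the 20 alternative settings. These were leaving out klu replicate 2, 35S:KLU1 replicate 1 or 3 or 35S:KLU2 replicate 1 (adjusted p up to 0.0929), the replicate block (0.0553), and median-of-ratios or upper-quartile scaling (0.194 and 0.192, with the log2 fold change of NAOAT at 0.11 and 0.10).

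Of the 17 tested polyamine genes, 5 were called against Col-0, 2 higher and 3 lower, and 10 against klu, 4 higher and 6 lower. The shares of all tested genes called were 19.6% and 26.6%. ADC2, the stress-responsive arginine decarboxylase, had 114 to 139 FPKM in the 35S:KLU lines, 61.3 to 81.1 FPKM in klu plants and 75.9 to 83.02 FPKM in Col-0, a log2 fold change of 0.66 ± 0.10 against Col-0 (adjusted p = 0.0011). Its partner ADC1 had 58.3 to 68.8 FPKM in the 35S:KLU lines, 65.3 to 81.5 FPKM in klu plants and 66.8 to 70.4 FPKM in Col-0. The ratio of ADC2 to ADC1 was 1.76 to 2.35 in the 35S:KLU lines, 0.752 to 1.24 in klu and 1.109 to 1.203 in Col-0, with no overlap (p = 0.0238 against each, exact permutation test, adjusted p = 0.0346). ADC2 alone did not overlap either, so the test of this ratio adds no support beyond its limma calls.

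SPMS, spermine synthase, had 95.2 to 121 FPKM in the 35S:KLU lines, 41.0 to 81.1 FPKM in klu plants and 56.9 to 82.0 FPKM in Col-0. Its log2 fold change was 0.67 ± 0.17 against Col-0 (adjusted p = 0.0195), a call lost when Col-0 replicate 1 or 2 was left out (adjusted p up to 0.105), and 0.95 ± 0.17 against klu (adjusted p = 0.00224). ACL5, which makes thermospermine, fell to 22.6 to 28.3 FPKM in the 35S:KLU lines, against 36.2 to 39.7 FPKM in klu plants and 33.8 to 39.2 FPKM in Col-0 (−0.47 ± 0.08 against Col-0, adjusted p = 0.00155). The decarboxylase gene SAMDC2 and the oxidase gene PAO5 were also lower (−0.47 ± 0.11 and −0.34 ± 0.08 against Col-0), but SAMDC2 lost its call without Col-0 replicate 2 or 3 and PAO5 without Col-0 replicate 2 (adjusted p up to 0.0596 and 0.0514). Against klu both were called lower in every setting (−0.67 and −0.35, adjusted p = 9.97e-04 and 0.00494, limma). AIH and NLP1, which carry the product of arginine decarboxylase on to putrescine, were called lower against klu (−0.30 ± 0.07 and −0.19 ± 0.06), as was ADC1 (−0.27 ± 0.08). The call of AIH held in every setting, and those of ADC1 and NLP1 were lost in 5 and 11 of the 20, leaving out klu replicate 1 or 2 among them (adjusted p up to 0.0972 and 0.0814). Against Col-0 the values of AIH, NLP1 and ADC1 were −0.17 ± 0.07, −0.18 ± 0.06 and −0.13 ± 0.08, and none was called.

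**Figure D4:**
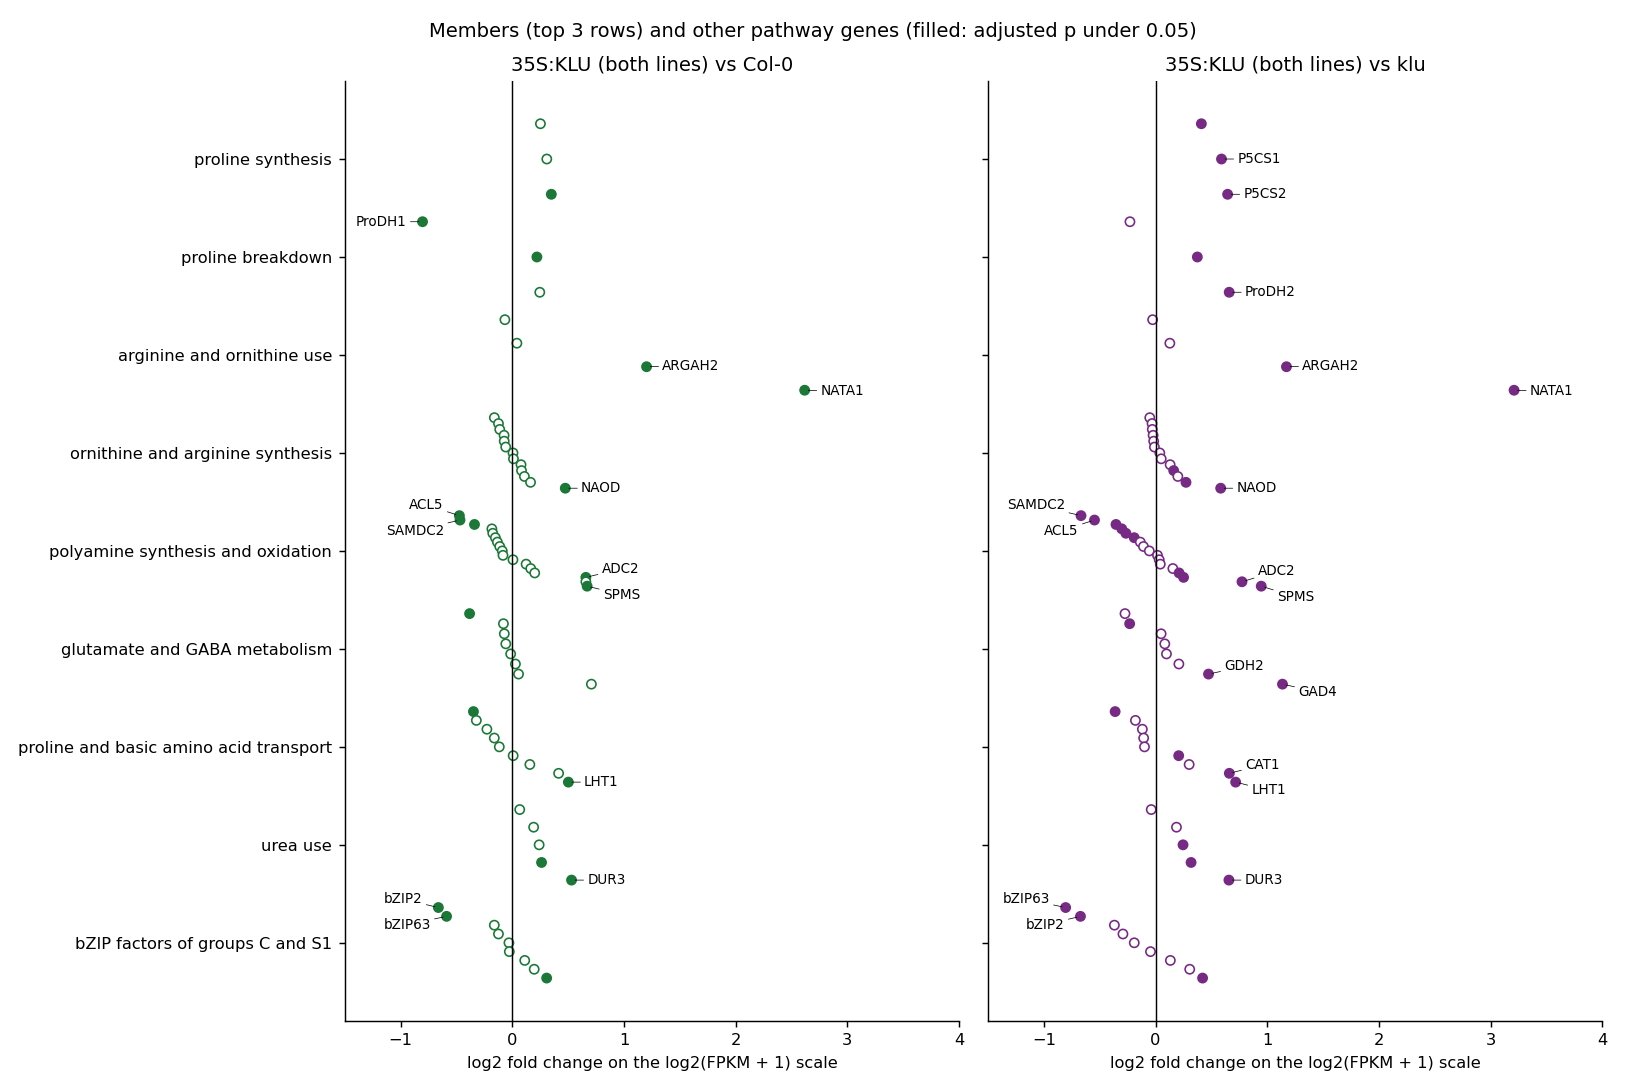
Log2 fold change on the log2(FPKM + 1) scale of the 10 genes (top 3 rows) and of the 61 tested genes of the 6 further lists (points, sorted within a row) for the mean of both 35S:KLU lines against Col-0 (left) and klu (right); filled points have an adjusted p under 0.05, and called genes past 0.44 in size are named. NATA1 and ARGAH2 lie beyond every other gene shown, and most rows hold points on both sides of 0.

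Among 8 tested genes of glutamate and GABA metabolism, the calmodulin-regulated glutamate decarboxylase GAD2 was lower, with 348 to 384 FPKM in the 35S:KLU lines, 403 to 442 FPKM in klu plants and 436 to 498 FPKM in Col-0 (−0.38 ± 0.06 against Col-0, adjusted p = 0.00134, and −0.23 ± 0.06 against klu, adjusted p = 0.0127). GAD4 had 6.26 to 10.99 FPKM in the 35S:KLU lines, 1.34 to 4.92 FPKM in klu plants and 4.32 to 5.69 FPKM in Col-0, and was called against klu (1.14 ± 0.27, adjusted p = 0.00853) but not against Col-0 (0.71 ± 0.27, adjusted p = 0.0832). Without klu replicate 1, the lowest plant for GAD4, the value against klu was 0.70 (adjusted p = 0.0165). GDH2, a glutamate dehydrogenase gene, was called against klu only (0.47 ± 0.12, adjusted p = 0.0143), and its value against Col-0 was 0.03 ± 0.12. The value of GDH2 against klu was 0.295 without klu replicate 1 (adjusted p = 0.0474).

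Of 9 transporter genes, 2 were called against Col-0, 1 higher and 1 lower, and 4 against klu, 3 higher and 1 lower, beside 19.6% and 26.6% of all tested genes. The proline transporter ProT1 was lower in the 35S:KLU lines (16.5 to 20.8 FPKM) than in klu (24.7 to 25.7 FPKM) and Col-0 (23.7 to 26.8 FPKM), by −0.35 ± 0.07 on the log2 scale against Col-0 (adjusted p = 0.00458). LHT1, an amino acid importer, was higher, with 51.8 to 65.6 FPKM in the 35S:KLU lines, 27.0 to 48.9 FPKM in klu plants and 36.3 to 45.7 FPKM in Col-0. Its call against klu held in every setting (0.72 ± 0.15, adjusted p = 0.00512). Its call against Col-0 (0.50 ± 0.15, adjusted p = 0.0384) was lost without any one of the 3 Col-0 plants, 35S:KLU1 replicate 1 or 3 or 35S:KLU2 replicate 1 or 3 (adjusted p up to 0.165), and with no filter on low values (0.065). CAT1 and AAP6 were called higher against klu only (0.66 and 0.21, adjusted p = 0.00683 and 0.0413, limma). The call of CAT1 held in every setting, and that of AAP6 was lost in 12 of the 20.

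Arginase also releases urea, and 2 of 5 genes of urea use were called higher against Col-0 and 3 against klu. Of all tested genes 19.6% and 26.6% were called. URE, the urease, had 17.9 to 20.4 FPKM in the 35S:KLU lines, 14.4 to 16.7 FPKM in klu plants and 14.2 to 16.8 FPKM in Col-0 (0.26 against Col-0), with the call lost without Col-0 replicate 1 or 2, 35S:KLU1 replicate 3 or 35S:KLU2 replicate 3 (adjusted p up to 0.123). Against klu, the calls of URE, UREG and DUR3 were each lost without klu replicate 1, among others (adjusted p up to 0.0777, 0.0953 and 0.061). The urea transporter gene DUR3 had 14.9 to 19.97 FPKM in the 35S:KLU lines, 8.24 to 15.5 FPKM in klu plants and 10.3 to 12.46 FPKM in Col-0. Its log2 fold change against Col-0 was 0.53 ± 0.17 (adjusted p = 0.0447), and this call was lost without any one of the 3 Col-0 plants, the 3 35S:KLU1 plants or 35S:KLU2 replicate 1 or 3 (adjusted p up to 0.173), and with no filter on low values (0.0747).

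Of 9 genes for bZIP factors of groups C and S1, some of whose products are known as regulators of ProDH genes in Arabidopsis, bZIP2 and bZIP63 were lower in every 35S:KLU plant than in every other plant. bZIP2 had 10.3 to 13.5 FPKM in the 35S:KLU lines, 16.5 to 21.9 FPKM in klu plants and 17.96 to 21.1 FPKM in Col-0 (−0.66 ± 0.10 against Col-0, adjusted p = 0.00134). bZIP63 had 4.33 to 7.23 FPKM in the 35S:KLU lines, 9.66 to 11.7 FPKM in klu plants and 8.42 to 9.69 FPKM in Col-0 (−0.59 ± 0.11 against Col-0, adjusted p = 0.00283). bZIP25 was higher by 0.31 ± 0.07 against Col-0 (adjusted p = 0.0113, lost without Col-0 replicate 1 at 0.0651) and by 0.42 ± 0.07 against klu (adjusted p = 0.00137). The other 6 were not called in either comparison.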

How the data were processed

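RNA-seq of 12 whole rosettes (4 genotypes, 3 plants each) was analysed from the deposited table of FPKM. Per the labels and the methods of the study, polyadenylated RNA was turned by the authors into directional libraries, sequenced from both ends and mapped to TAIR10. The submitters' processing notes list RSEM 1.2.22 and STAR (no version) as tools, and the FPKM are the authors' values. The table also holds 24 columns of the authors' own DESeq2 comparisons, which were not used, and 0 columns of other samples.

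FPKM are not counts, so log2(FPKM + 1) was tested with limma 3.58.1 (R 4.3.3, variance trend) in 1 fit of 4 genotype means over the genes that reached 0.5 FPKM in 3 or more libraries, with Benjamini-Hochberg adjustment over all 19660 tested genes. A call is an adjusted p under 0.05, and 8 comparisons were made. Errors are SE unless given as SD. The fit was first run on simulated data with independent noise for each gene. Those data held no outlying library, so they do not show how the fit handles one. Ratios were compared with exact permutation tests (SciPy). All 10 members were named, and list genes by whether they were called and by size of change. The alternatives were a pseudocount of 0.1, no filter, 3 other scalings, library weights, only the groups compared, a replicate block and leaving out each library. For the list genes these were chosen after seeing the data. The members and lists were chosen with earlier results of these data known. Promoters were read from RefSeq TAIR10.1 by locus identifier, and the table itself holds no coordinates. Depth is known only in relative terms, which limits precision for low genes. Fold changes on this scale understate changes of low genes.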

Additional observations from a re-analysis of the deposited data

How the results depend on the processing

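The count of members called moved most where a single library was left out, from 3 to 6 for both 35S:KLU lines against Col-0 (5 as reported) and from 2 to 7 for 35S:KLU2 against Col-0 (5 as reported), and it was 3 rather than 5 for 35S:KLU1 against klu with only those groups in the fit. Over the leave-one-out fits it was 6 to 7 for both lines against klu, 2 to 4 for 35S:KLU1 against Col-0, 4 to 6 for 35S:KLU1 against klu and 5 to 7 for 35S:KLU2 against klu. P5CR was called for both lines against Col-0 with library weights (adjusted p = 0.0103) or only the groups compared (0.00721), and not called against klu with library weights (0.0672). The replicate numbers did not pair the plants (18 same-number pairs correlated from −0.159 to 0.133, with a median of −0.025), and with the replicate block the counts for both lines stayed at 5 against Col-0 and 7 against klu, while that of 35S:KLU2 against klu was 6 because P5CR was no longer called (adjusted p = 0.0533).

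The direction changed only for values near 0, none of them called. DELTA-OAT for both lines against Col-0 was −0.003 with upper-quartile scaling and −0.005 with library weights. With library weights P5CR was 0.043 and ARGAH2 −0.062 in klu against Col-0. In 35S:KLU2 against 35S:KLU1, median-of-ratios, upper-quartile and equal-sum scaling gave −0.010, −0.009 and −0.005 for ProDH1, −0.059, −0.058 and −0.054 for ARGAH1 and −0.024, −0.023 and −0.018 for NATA1. Without single libraries, DELTA-OAT ran from −0.053 to 0.096 for both lines against Col-0, from −0.130 to 0.067 for 35S:KLU1 against Col-0 and from −0.030 to 0.153 for 35S:KLU1 against klu. ARGAH1 ran from −0.114 to 0.019 for both lines against Col-0, −0.101 to 0.032 for both against klu, −0.120 to 0.013 and −0.107 to 0.026 for 35S:KLU1 and 35S:KLU2 against Col-0, −0.108 to 0.025 and −0.095 to 0.039 for these lines against klu, −0.098 to 0.046 for klu against Col-0 and −0.011 to 0.046 between the lines. In klu against Col-0, P5CR ran from −0.281 to 0.064 and ARGAH2 from −0.079 to 0.127. Between the lines, ProDH1 ran from −0.121 to 0.237, ARGAH2 from −0.195 to 0.035 and NATA1 from −0.310 to 0.471. The cause of these shifts was not tested. Scaling moved the median of all tested genes by less than 0.1 on the log2 scale.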
